A study of Mus musculus with 12 samples.

Results

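The receptors described here bind the interleukins that signal through the common gamma chain, and the stem cell factor receptor Kit was added to them. All probe sets carrying the platform symbol of Il7r, Il2ra, Il2rb, Il2rg, Il15ra, Il4ra or Kit were taken. They were 7 of the 12488 probe sets of the array and stood for 6 of the 7 genes, among 8251 genes named by the annotation, with 2 probe sets for Il4ra and 1 for each of the others. Il2rg, the common gamma chain itself, was not analysed here. The list was chosen by receptor family with the group differences of all 3 comparisons already known, so the levels and differences of its genes are a description and support nothing by themselves.

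The cells were mouse thymocytes from RTOC (reaggregate thymic organ culture, in which thymocytes are grown together with thymic stroma), harvested at day 6 and profiled as total RNA on 12 Affymetrix arrays. HY_high and HY_low cells carried the HY T cell receptor and received Smcy peptide at 1e-05 M and 1e-07 M. OT1 cells carried the OT1 receptor, and no peptide is named for them. Each group had 4 arrays, numbered 1 to 4 in the titles. The titles also carry the letters aa for HY_high and ab for HY_low, whose meaning the labels leave unexplained, so dose and whatever these letters mark cannot be told apart. Receptor and peptide changed together in the comparisons with OT1. Strain, age, any sorting of the cells and whether arrays came from separate cultures are not given in the labels, so p-values measure the spread between arrays, which may be technical.

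Intensities are on a linear scale with a lowest value of 1, and the median per array lay between 3.33 and 3.97. Between 3% and 22.5% of an array's values stood at 1. Cd8b1, the beta chain of the CD8 coreceptor, had 8.18, 1, 6.18 and 8.26 on HY_high arrays 1 to 4. It had 172 to 1374 on HY_low arrays and 219 to 1219 on OT1 arrays, so HY_high cells stood apart at this gene. Of 12 T lineage markers 11 were measured, and their geometric mean reached 8 for 9 in HY_high, 10 in HY_low and 10 in OT1. Summed intensity of the 10 markers other than Cd8b1 was 1011 to 2142 in HY_high, 1752 to 2373 in HY_low and 1426 to 1876 in OT1. HY_high overlapped with the other groups only through its array 1, at 2142. With Cd8b1 included, HY_high arrays 2 to 4 stood at 1012, 1421 and 1152, and the lowest sums were 2160 in HY_low and 2095 in OT1. Cd8b1 itself made up much of that gap. Without it, HY_high array 3 lay only just below the lowest OT1 array, at 1426. Geometric means of Cd3e were 48 in HY_high, 57.2 in HY_low and 41.5 in OT1, those of Cd3g 231, 273 and 184, and those of Cd3d 98.3, 101 and 87.3. Some other markers of the list were lowest in HY_high, and some were not. In the same order of groups, Cd8a had 157, 339 and 340, Cd2 had 95.5, 203 and 197, and Cd5 had 36.1, 61.1 and 50.4. Zap70, the brightest of the 10 markers summed, had 555, 705 and 564. Lat (11.2, 9.06 and 13.2) and Cd4 (4.86, 4.68 and 6.18) were lowest in HY_low. Since any sorting of the cells is not given, fewer cells of a type and less RNA per cell cannot be told apart.

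Common gamma receptors are built from a cytokine-binding chain and the shared gamma chain, and they signal through Jak1, Jak3 and Stat proteins. Interleukin 7 is needed by early thymocytes and again after positive selection, while cortical double-positive thymocytes carry little Il7r. Interleukin 15 supports memory T cells, natural killer cells and several lymphocyte types of innate character. Kit is a receptor tyrosine kinase of blood progenitors, the earliest thymocytes and mast cells.

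Il7r and Kit had the largest mean log2 differences between HY_high and HY_low among these genes, so their promoters are shown here as the regulatory sequence nearest to the transcripts. Both are RefSeq windows of GRCm38.p6, 250 bases before to 50 bases after the transcription start, written 5′ to 3′ on the gene's own strand. The Il7r window is chr15:9529827-9530126 on the minus strand, and the Kit window is chr5:75574737-75575036 on the plus strand, the first of 2 Kit starts listed. Capitals mark the motifs searched on both strands.
Il7r: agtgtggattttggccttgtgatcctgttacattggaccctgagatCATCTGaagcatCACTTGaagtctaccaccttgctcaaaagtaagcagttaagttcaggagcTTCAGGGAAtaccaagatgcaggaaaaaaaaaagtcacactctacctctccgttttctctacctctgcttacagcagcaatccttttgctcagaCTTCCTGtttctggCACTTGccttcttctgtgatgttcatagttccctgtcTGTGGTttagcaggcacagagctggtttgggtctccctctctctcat
Kit: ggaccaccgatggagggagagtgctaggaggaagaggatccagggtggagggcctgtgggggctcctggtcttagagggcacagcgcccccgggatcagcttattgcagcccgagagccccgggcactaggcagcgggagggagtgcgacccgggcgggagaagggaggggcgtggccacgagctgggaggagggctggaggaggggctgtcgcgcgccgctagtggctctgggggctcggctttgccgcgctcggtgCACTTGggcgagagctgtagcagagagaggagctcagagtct

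The Il7r window had 45.7% G and C and held 1 match each to a STAT-type motif (TTCNNNGAA), an Ets-type motif (CAGGAAG) and a Runx-type motif (TGTGGT). These motifs occur in 8.30%, 13.3% and 16.8% of the 32851 promoter windows in the same table. The Il7r window also held 3 E-box matches (CANNTG). The Kit window had 69.0% G and C and held 1 E-box match, a motif found in 72.3% of windows, and no match to the STAT-, Ets- or Runx-type motif. Neither window held the forkhead-type (GTAAACA) or GATA-type (AGATAA) letters, which 3.65% and 11.2% of windows have. These matches describe the sequence and were not tested as binding sites.

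Il7r encodes the interleukin 7 receptor alpha chain, which also forms part of the receptor for thymic stromal lymphopoietin. Its intensities were 22.8, 69.6, 247 and 81.5 on HY_high arrays 1 to 4, then 15.0, 30.7, 29.9 and 32.2 on HY_low arrays and 34.3, 180, 178 and 36.2 on OT1 arrays. HY_low was the low group: all 4 of its arrays lay below all 4 OT1 arrays, while HY_high overlapped with both. Geometric means were 75.2 in HY_high, 25.8 in HY_low and 79.4 in OT1, with an SD on the log2 scale of 1.4, 0.52 and 1.35 (n = 4 each). The log2 difference between HY_high and HY_low was 1.54 ± 0.69 (SE, limma), a 2.91-fold higher mean, and it was positive within 4 of 4 numbers. That between HY_low and OT1 was -1.62 ± 0.69, a 3.08-fold lower mean, and it was negative within 4 of 4 numbers. HY_high and OT1 differed by -0.08 ± 0.69, with 2 numbers higher and 2 lower, so these neighbours in the order of levels did not differ beyond their spread. HY_high array 3 weighed on the first of these: without it the log2 difference was 0.97, and without HY_high array 1 it was 2.12. The difference between HY_low and OT1 was -1.23 without OT1 array 2, and also -1.23 without OT1 array 3. With the title number fitted as a block, the SE of each Il7r difference was 0.39. The limma adjusted p was then 0.121 between HY_high and HY_low and 0.193 between HY_low and OT1.

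Within each group, arrays 1 and 4 of OT1 and array 1 of both HY groups held the lower Il7r values. The 4 title numbers accounted for 45.0% of the log2 variance of Il7r over the 12 arrays and the 3 groups for 35.3%.

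**Figure D1:**
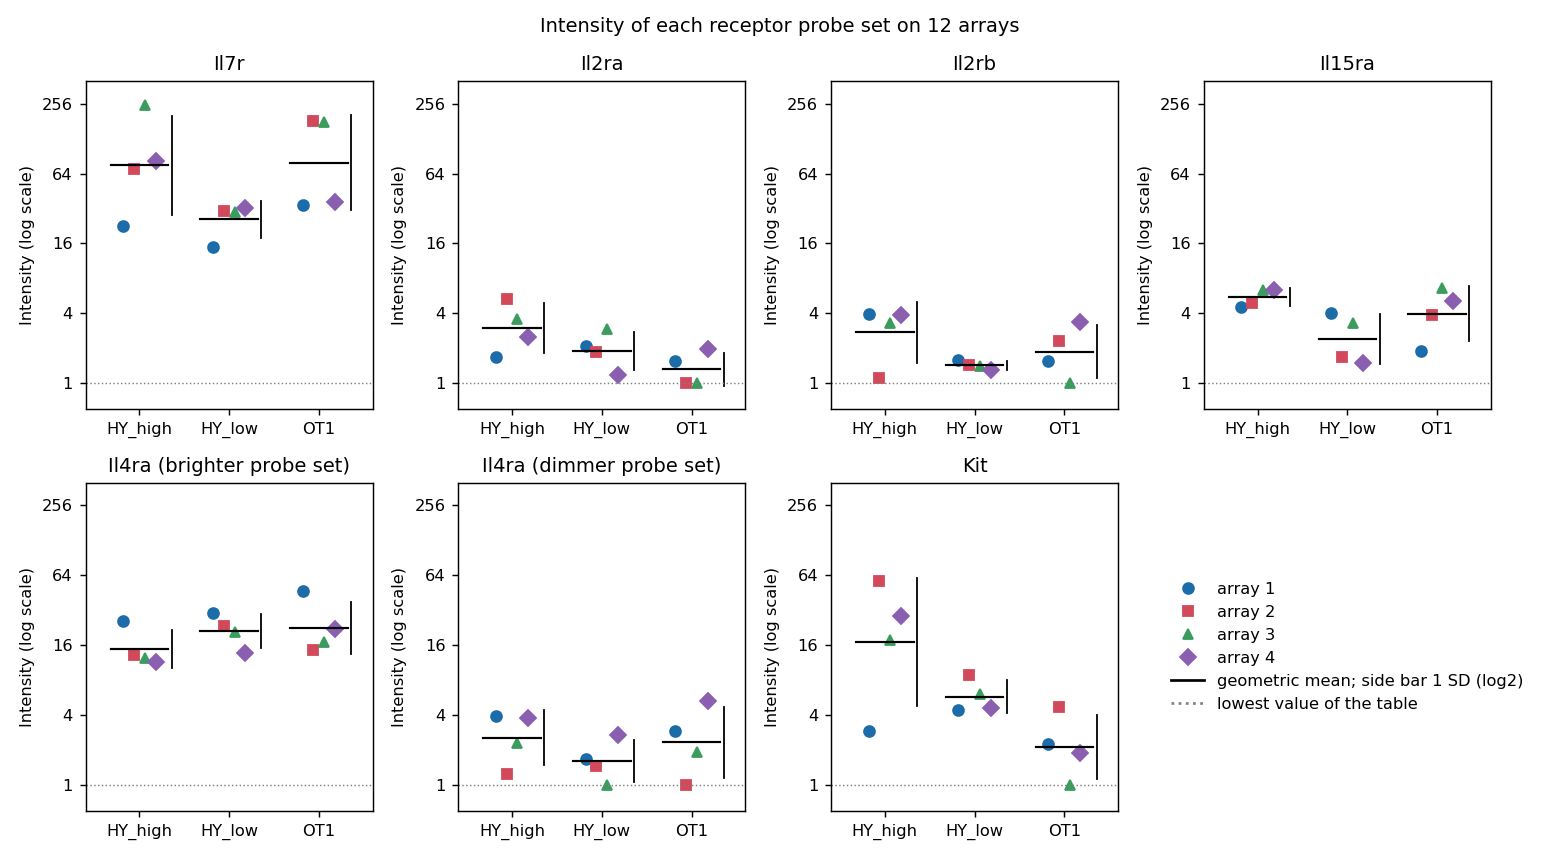
Intensity (log axis) of the 7 probe sets on each of 12 arrays, with HY_high left, HY_low in the middle and OT1 right; horizontal bars are geometric means, side bars 1 SD on the log2 scale, and marker shape gives the array number. Il7r and the brighter Il4ra probe set lay above 8 on 12 of 12 arrays, and Kit reached 56.6 on HY_high array 2 while HY_high array 1 stood at 2.95.

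Kit had 2.95, 56.6, 17.6 and 28.7 on HY_high arrays 1 to 4. Its intensities were 4.41, 8.93, 6.04 and 4.62 on HY_low arrays, and 2.27, 4.66, 1 and 1.90 on OT1 arrays. Arrays 2 to 4 of HY_high lay above all arrays of the other groups, and array 1 lay below all 4 HY_low arrays, so no pair of groups was fully separate. Geometric means were 17.1 in HY_high, 5.76 in HY_low and 2.12 in OT1, with log2 SDs of 1.82, 0.47 and 0.91 (n = 4 each). The log2 difference was 1.57 ± 0.72 (SE) between HY_high and HY_low, 1.44 ± 0.72 between HY_low and OT1, and 3.01 ± 0.72 between HY_high and OT1. The last is an 8.05-fold higher mean in HY_high, measured against OT1 values at the bottom of the scale. With intensities under 8 set to 8, the 3 log2 differences became 1.41, 0.04 and 1.45. Both HY comparisons with OT1 use the same OT1 arrays.

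Within the numbers, Kit differed between HY_high and HY_low by -0.58, 2.66, 1.55 and 2.64 on the log2 scale for numbers 1 to 4. Between HY_high and OT1 the corresponding values were 0.38, 3.60, 4.14 and 3.92, and between HY_low and OT1 they were 0.96, 0.94, 2.59 and 1.28. Number 1 gave the lowest value in both comparisons of HY_high. Without HY_high array 1 the log2 difference of HY_high was 2.41 from HY_low and 3.85 from OT1, and without HY_high array 2 it was 0.99 and 2.43. HY_high array 2, with the highest Kit value, also had the lowest share of values at 1, at 3%, against 5.18% on HY_low array 2 and 19.0% on OT1 array 2, and the part of this in the result was not tested.

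**Figure D2:**
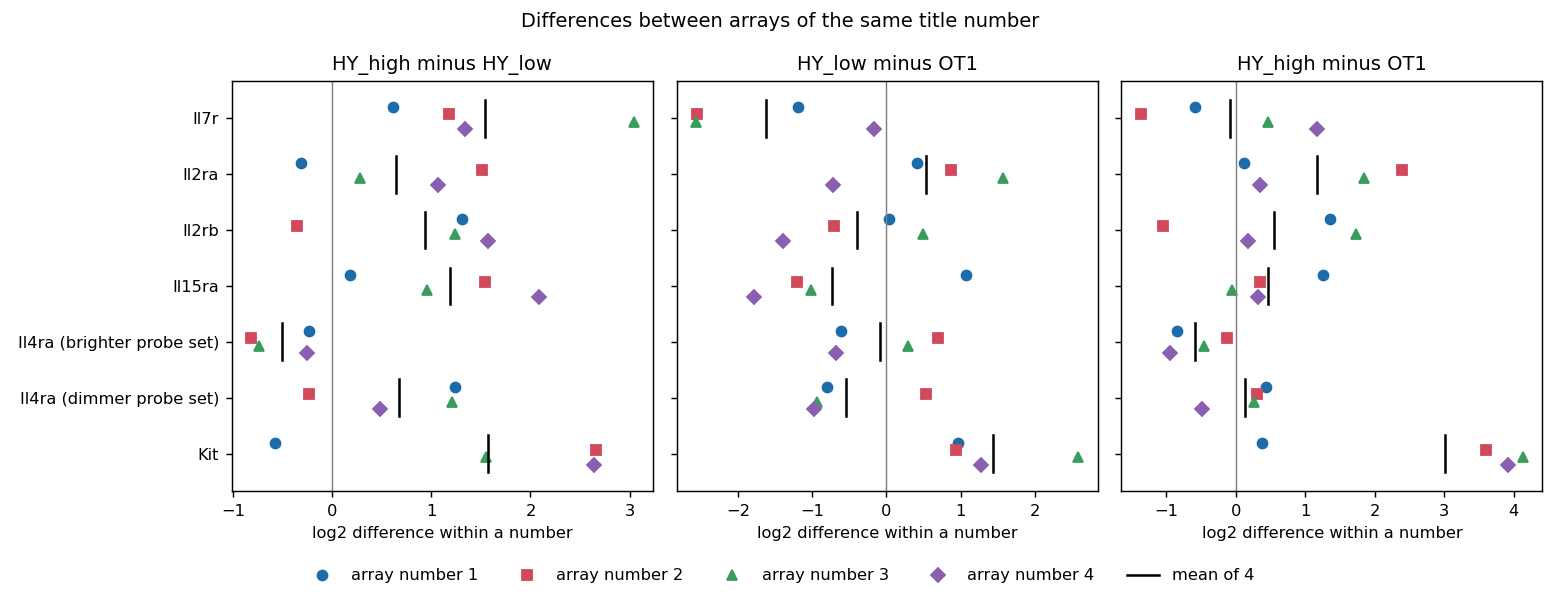
Log2 differences between arrays of the same title number (horizontal axis) for each probe set, in 3 panels by comparison; markers are numbers 1 to 4 and the vertical bar is their mean. Il7r was higher in HY_high than in HY_low within 4 of 4 numbers and lower in HY_low than in OT1 within 4 of 4, and Kit was higher in HY_high than in OT1 by 0.38 in number 1 and by 3.60 to 4.14 in the others.

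By limma across 8695 probe sets, 0 of the 7 passed an adjusted p of 0.05 in HY_high against HY_low, where 0.023% of all probe sets passed. In HY_low against OT1 the count was also 0 of 7, beside 0.023%, and in HY_high against OT1 it was 0 of 7, beside 0.173%. At an unadjusted p under 0.05 the counts were 3, 1 and 2 of 7, beside 2.96%, 2.65% and 4.08% of all probe sets. The count in HY_high against HY_low was not stable. It was 1 with intensities under 8 set to 8, 0 without HY_high array 3 or without HY_high array 4, and 4 with array weights. With the title number as a block 0, 0 and 1 of 7 passed, beside 0.345%, 0.092% and 1.36% of all probe sets. The 1 was Kit in HY_high against OT1, with a limma adjusted p of 0.204 without the block and 0.00731 with it. Kit also passed there without HY_high array 1 (limma adjusted p = 0.00588), without all 3 arrays numbered 1 (0.0297) and with array weights (0.00198). It passed under no other planned setting, and with both the block and intensities under 8 set to 8 its limma adjusted p was 0.223. Since Kit was proposed with this comparison in view, these values place it within the fit and are no independent evidence.

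Mast cells and early progenitors are the cell types known for Kit. All 10 mast cell markers were measured, and 0 of them reached a geometric mean of 8 in HY_high, 0 in HY_low and 1 in OT1. Their summed intensity was 21.2 to 24.4 in HY_high, 15.6 to 30.6 in HY_low and 14.8 to 52.2 in OT1. The marker that reached 8 in OT1 was Tpsb2, at 3.68 in HY_high, 6.39 in HY_low and 8.03 in OT1. In the same order of groups, Mcpt1 had 4.27, 2.12 and 3.14, Cpa3 had 2.02, 2.18 and 1.1, and Fcer1a had 1.22, 1.18 and 1.09. Of 10 markers of early progenitors and double-negative thymocytes other than the receptors, 9 were measured. They summed to 162 to 469 in HY_high, 296 to 696 in HY_low and 177 to 374 in OT1, and 3, 3 and 2 of them reached 8. Cd34 lay at 1.89 and Ptcra at 1.93 in HY_high. The list's brightest members, Notch1 and its target Dtx1, were lowest in HY_high, with geometric means of 127 and 81.5 in HY_high, 231 and 172 in HY_low, and 153 and 111 in OT1. Flt3, a receptor of early progenitors, ran in the same order as Kit, at 15.3 in HY_high, 8.87 in HY_low and 7.56 in OT1. So did Hes1, a dimmer member of the list, at 7.28, 5.98 and 4.76. The part of these genes in the Kit values was not tested.

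The chains of the interleukin 2 and interleukin 15 receptors were dim throughout. Il2rb, the signalling beta chain shared by both receptors, had 3.97, 1.12, 3.32 and 3.86 on HY_high arrays. It had 1.60, 1.43, 1.41 and 1.30 on HY_low arrays and 1.56, 2.32, 1 and 3.41 on OT1 arrays. All 12 values lay under 4, and HY_high array 2 fell below every HY_low array while the other HY_high arrays exceeded them all. The log2 difference was 0.94 ± 0.50 (SE, n = 4 per group) between HY_high and HY_low, -0.39 ± 0.50 between HY_low and OT1, and 0.55 ± 0.50 between HY_high and OT1. Without HY_high array 2 the last was 0.98.

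Il2ra, the alpha chain that raises affinity for interleukin 2 and marks an early double-negative stage as well as regulatory T cells, had 1.68, 5.28, 3.59 and 2.50 on HY_high arrays. It had 2.08, 1.85, 2.96 and 1.19 on HY_low arrays and 1.55, 1.01, 1 and 1.96 on OT1 arrays. The groups overlapped in each comparison. Geometric means ordered HY_high (2.99) above HY_low (1.92) above OT1 (1.32), and the log2 differences between these neighbours, 0.64 ± 0.47 and 0.54 ± 0.47, were close to their errors. HY_high exceeded OT1 by 1.17 ± 0.47 on the log2 scale, within 4 of 4 numbers by 0.12 to 2.39. Other markers of regulatory T cells, 5 of 6 measured, summed to 107 to 196 in HY_high, 63.8 to 137 in HY_low and 61.0 to 133 in OT1. Most of that was Tnfrsf18, with geometric means of 120, 61.3 and 65.6, and its part in the Il2ra values was not tested.

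Il15ra, the chain that binds interleukin 15 and presents it to neighbouring cells, had 4.55, 4.96, 6.43 and 6.36 on HY_high arrays. It had 4.02, 1.70, 3.31 and 1.49 on HY_low arrays and 1.90, 3.90, 6.67 and 5.10 on OT1 arrays. All HY_high arrays lay above all HY_low arrays, while OT1 overlapped with both. The log2 difference between HY_high and HY_low was 1.19 ± 0.50 (SE), a 2.29-fold higher mean, and within the numbers it was 0.18, 1.54, 0.96 and 2.09. HY_low differed from OT1 by -0.73 ± 0.50 and HY_high from OT1 by 0.47 ± 0.50.

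Without overlap and higher in HY_high than in HY_low were 1 of 7 receptor probe sets (Il15ra), beside 1.24% of all probe sets tested. Without overlap and lower in HY_low than in OT1 was also 1 of 7 (Il7r), beside 0.748%. With intensities under 8 set to 8, Il2ra, Il2rb, Il15ra and the dimmer Il4ra probe set had no value above that floor on any array. Markers of natural killer cells, which carry Il2rb, were dim too. Of 8 such markers 5 were measured, and their sum was 10.0 to 16.7 in HY_high, 11.1 to 16.4 in HY_low and 11.9 to 23.0 in OT1. Their geometric means ran from 1.09 for Ncr1 to 3.71 for Gzma in HY_high. The highest in the other groups were 4.17 for Prf1 in HY_low and 5.71 for Eomes in OT1.

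Il4ra binds interleukin 4 together with the common gamma chain, and interleukin 13 together with another partner. Its brighter probe set had 26.0, 13.3, 12.5 and 11.5 on HY_high arrays, 30.4, 23.4, 20.9 and 13.7 on HY_low arrays and 46.4, 14.5, 17.1 and 22.0 on OT1 arrays. Array 1 was the highest in each group, and the groups overlapped. Geometric means were 14.9 in HY_high, 21.3 in HY_low and 22.4 in OT1 (log2 SD 0.54, 0.48 and 0.74, n = 4 each). HY_high was lower within 4 of 4 numbers, by a log2 difference of -0.51 ± 0.46 from HY_low and -0.59 ± 0.46 from OT1. These differences were about the size of their SE in the fit without the title number. With the number as a block the SE was 0.28, and the limma adjusted p was 0.544 against HY_low and 0.433 against OT1. HY_low and OT1 differed by -0.08 ± 0.46. The dimmer probe set disagreed with the brighter one in direction for HY_high, with 0.67 ± 0.55 against HY_low and 0.13 ± 0.55 against OT1. It ran from 1.25 to 3.94 in HY_high, from 1 to 2.72 in HY_low and from 1.01 to 5.33 in OT1.

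**Figure D3:**
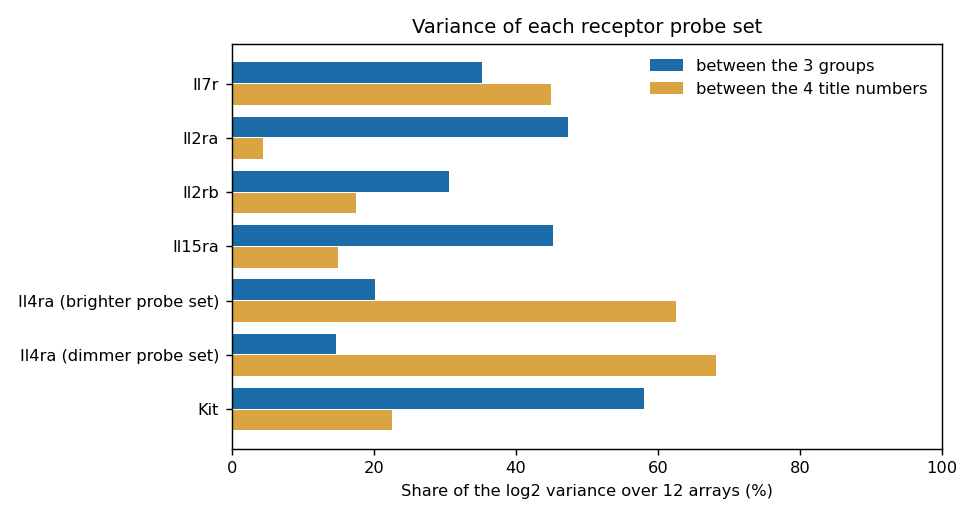
Share of the log2 variance over 12 arrays (horizontal axis, %) that lay between the 3 groups and between the 4 title numbers, for each probe set. The groups held 58.0% for Kit and 47.4% for Il2ra, while the numbers held 62.6% and 68.2% for the 2 Il4ra probe sets.

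Degrees of freedom alone would give 18.2% of the variance to groups, 27.3% to numbers and 54.5% to neither. Kit (58.0%), Il2ra (47.4%), Il15ra (45.2%) and Il2rb (30.6%) had more of their variance between groups than between numbers, where the shares were 22.6%, 4.34%, 15.0% and 17.5%. Il7r and both Il4ra probe sets had more between numbers, and for Il4ra the groups held 20.2% and 14.7%. Neither factor held 48.3% for Il2ra, 51.9% for Il2rb and 39.7% for Il15ra, against 17.2% to 19.7% for the other probe sets. What the numbers stand for is not given in the labels. Among B cell markers, 7 of 8 measured, Ighm was highest on array 1 of each group, at 461, 593 and 987 in HY_high, HY_low and OT1. The 6 others summed to 67.6, 41.2 and 21.3 on these arrays, within ranges of 34.4 to 67.6 in HY_high, 20.9 to 47.4 in HY_low and 21.2 to 36.4 in OT1. The part of Ighm in the Il4ra and Il7r values was not tested.

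Over the 7 probe sets the median log2 difference was 0.94 in HY_high against HY_low, beside 0.01 over all probe sets tested. It was -0.39 in HY_low against OT1, beside 0.01, and 0.47 in HY_high against OT1, beside 0.02. These medians mix dim and bright probe sets and describe the members only.

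Genes with profiles nearest to the receptors were sought among 7717 tested probe sets of other genes, by the mean absolute difference of centred log2 values over the 12 arrays, which share groups and title numbers. Nearest to Kit were Hhex at 0.62, Ms4a4c at 0.66 and Serinc3 at 0.67, where the median candidate lay at 1.43. Hhex, a homeobox factor of blood progenitors, had geometric means of 6.43 in HY_high, 2.51 in HY_low and 2.05 in OT1, and Serinc3 had 94.9, 49.0 and 31.9. Nearest to Il7r were Smad1 at 0.54, Tsr1 at 0.55 and Adh5 at 0.57, where the median candidate lay at 1.19. Smad1, a transducer of bone morphogenetic protein signals, had 19.1 in HY_high, 11.5 in HY_low and 20.8 in OT1. For Il2ra the nearest were Lct, Maoa and Gbp3 (0.31 to 0.34), and for Il15ra they were Nat2, Flg and Capzb (0.32 to 0.36). Both receptors were dim, and their median candidates lay at 0.81 and 0.82, closer than those of Kit and Il7r.

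The other genes of these pathways, 53 in 6 lists, were measured for 44 and tested for 34. By limma 0 of the 34 passed in any of the 3 comparisons, and 0 passed with the title number as a block. At an unadjusted p under 0.05 there were 0 in HY_high against HY_low, 2 in HY_low against OT1 and 3 in HY_high against OT1, beside 2.96%, 2.65% and 4.08% of all probe sets. Their median log2 differences were 0.19, 0.19 and 0.30, beside 0.01, 0.01 and 0.02 over all probe sets tested.

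**Figure D4:**
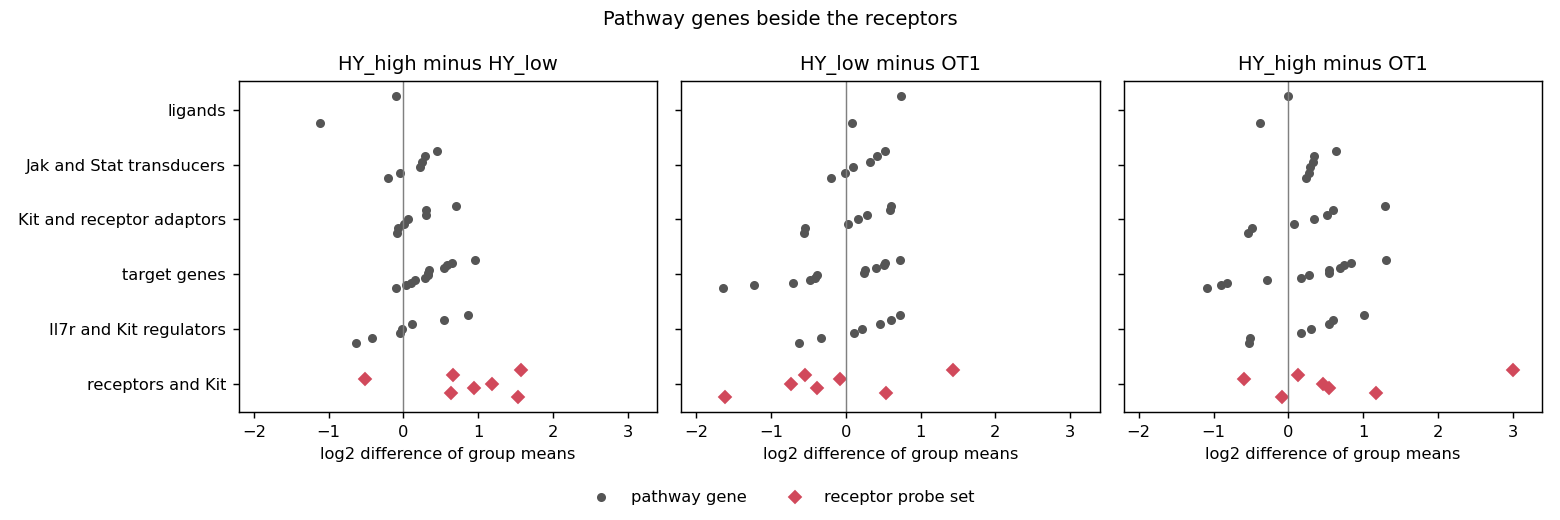
Log2 differences of group means (horizontal axis) for the 34 tested pathway genes by list (grey points) and for the 7 receptor probe sets (red diamonds), in 3 panels by comparison. Kit in HY_high against OT1, at 3.01, lay beyond all pathway genes, whose values in that panel ran up to 1.31.

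Of the ligands, 7 of 9 were measured and 2 passed the filter on dim probe sets, Il9 and Il4. Il9 had geometric means of 1.36 in HY_high, 2.95 in HY_low and 1.77 in OT1, and Il4 had 1.82, 1.94 and 1.84, so both stayed near the lowest value. Il2, Il7, Il15, Il13 and Kitl, which encodes stem cell factor, lay below the filter. So did Il9r and Il13ra1, the 2 of 4 other receptor chains that were measured.

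All 6 Jak and Stat transducers were tested. Jak1, the kinase bound to the cytokine-specific chains, had geometric means of 167 in HY_high, 141 in HY_low and 132 in OT1. Jak3, bound to the common gamma chain, had 22.6 in HY_high and 16.6 in HY_low (log2 difference 0.45 ± 0.77, SE). Stat5a, a main transducer of interleukins 2, 7 and 15, had 95.1 in HY_low and 65.9 in OT1 (0.53 ± 0.67). Stat3 had 44.4 in HY_high, 38 in HY_low and 28.5 in OT1, with 0.64 ± 0.58 between HY_high and OT1.

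Among target genes, 12 of 14 were tested. Cish, a feedback inhibitor induced by Stat5, had 50.5, 26.5, 29.5 and 19.7 on HY_high arrays, 41.3, 15.0, 12.8 and 19.1 on HY_low arrays and 23.5, 4.97, 10.3 and 17.0 on OT1 arrays. It was higher in HY_high than in OT1 within 4 of 4 numbers, and the groups overlapped (log2 difference 1.31 ± 0.53, limma adjusted p = 1, or 0.0569 with the block). Socs2, another inhibitor of cytokine signalling, had 15.6 in HY_high and 8.06 in HY_low (0.96 ± 0.56, adjusted p = 1). Pim2, a survival kinase, had 12.3 in HY_low and 28.9 in OT1 (-1.23 ± 0.44, limma adjusted p = 1), lower within 4 of 4 numbers, and its dimmer probe set gave -1.11. Eomes, a T-box factor linked to Il2rb expression, had 2.68 in HY_high, 1.83 in HY_low and 5.71 in OT1. Its log2 difference was -1.64 ± 0.47 between HY_low and OT1 and -1.09 ± 0.47 between HY_high and OT1 (limma adjusted p = 1 for both), and its highest value was 8.29.

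Of the adaptors 7 of 10 were tested. Sos1, a guanine nucleotide exchange factor for Ras, had 9.03 in HY_high, 5.58 in HY_low and 3.69 in OT1, and HY_high exceeded OT1 by 1.29 ± 0.53 (limma adjusted p = 1). Shc1 had 3.45 in HY_high, 3.61 in HY_low and 2.40 in OT1. Its log2 difference between HY_low and OT1 was 0.59 ± 0.52, and its dimmer probe set, with a mean intensity of 1.16, gave 0.04. Pik3r1, a regulatory subunit of phosphoinositide 3-kinase, had 2.54 in HY_high and 2.04 in HY_low. Of 10 regulators of Il7r and Kit 7 were tested. Gfi1, a repressor of Il7r, had 21.3 in HY_high, 14.6 in HY_low and 10.6 in OT1 (1.01 ± 0.56 between HY_high and OT1, adjusted p = 1). Gabpa, an Ets-family activator of Il7r, had 9.26 in HY_high and 5.08 in HY_low (0.86 ± 0.68), higher within 4 of 4 numbers, while its dimmer probe set gave -0.44. Lmo2 and Lyl1, partners in a transcription complex of progenitors, had 5.46 and 3.73 in HY_low and 3.57 and 2.26 in OT1 (0.61 ± 0.45 and 0.72 ± 0.50). Their dimmer probe sets did not share this, with -0.04 for Lmo2 and -0.46 for Lyl1.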

How the data were processed

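The authors deposited 1 table of intensities on a linear scale for 12 arrays; the labels do not name the software, background correction or scaling behind them. Groups, peptide doses and array numbers came from the titles and descriptions. The 66 control probe sets were left out, values were put on a log2 scale, and 8695 of 12422 probe sets with a mean log2 value above the 30th percentile (an intensity of 1.76) were tested. Symbols came from the platform annotation, updated by gene ID; 10833 probe sets had 1 symbol, 396 several and 1193 none.

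Group means were fitted with limma 3.58.1 in R 4.3.3 (9 residual degrees of freedom), with trended empirical Bayes variances, two-sided tests and Benjamini-Hochberg adjustment over all probe sets tested, at 0.05. The number of arrays limits the precision. Deviations from group means correlated at 0.341 to 0.593 in the 12 pairs of arrays with the same number, and at -0.401 to 0.163 in 36 other pairs, so the numbers pair the arrays in the data; blocking on the number left 6 residual degrees of freedom. Every SE given after ± comes from the fit without this block. Alternatives were floors at 8 and 16, 2 normalizations, 2 filters, array weights, no variance trend, the block and arrays left out.

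Receptors and gene lists were chosen with earlier results of these data known. A gene with several probe sets was read on the brightest. Named were all receptor probe sets, Cd8b1, and of each pathway list the 2 genes with the smallest p per comparison. Where group means of a receptor differed by over 2-fold, the 3 nearest profiles were named. Marker genes, Ccnd3 and the motifs were chosen after values were seen.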

Additional observations from a re-analysis of the deposited data

Results flagged for a closer look

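Among 21 sets of 4 values (7 probe sets in 3 groups), 2 held a value that stood far from the other 3 on the log2 scale, where chance flags about 1 in 20. Il7r was at 14.99 on HY_low array 1, and the other HY_low arrays ran from 29.9 to 32.2. Il2rb was at 1.12 on HY_high array 2, and the other HY_high arrays ran from 3.32 to 3.97.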

How the results depend on the processing

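Of 498 recomputed log2 differences of the receptor probe sets, 490 stayed within 1 SD of the reported value. Of the 8 beyond it, 6 were Kit against OT1 with a floor, down to 0.70 in HY_high and 0 in HY_low, and 2 were Il4ra read on its dimmer probe set. The sign changed in 16, among differences of HY_low from OT1 or HY_high from OT1 near 0 for Il7r and Il4ra, and for Il4ra on the other probe set. The 498 leave out settings in which a probe set failed the filter. Il2ra, Il2rb, Il15ra and the dimmer Il4ra probe set therefore have no value there with a floor. With intensities under 8 set to 8, all their differences were 0, also that of Il15ra between HY_high and HY_low, reported as 1.19. Receptor calls in HY_high against OT1 were 1 with the replicate block, 1 with array weights and 0 to 1 with arrays left out, and 0 under the other settings; they were 0 in the other comparisons under every setting, as were pathway calls in all 3. Calls over all probe sets in HY_high against HY_low were 4 with a floor of 8 or of 16, 1 with arrays scaled to one median, 1 with the filter at the 50th percentile, 7 with array weights, 30 with the replicate block, 6 with the block and a floor of 8, and 1 to 4 with arrays left out. Without the filter limma gave 0, with 431 at an unadjusted p under 0.05. In HY_low against OT1 they were 1 with a floor of 16, 4 with array weights and 8 with the replicate block. In HY_high against OT1 they were 8 with either floor, 9 without the filter, 64 with array weights, 118 with the replicate block, 26 with the block and a floor of 8, and 3 to 17 with arrays left out. The cause was not tested. Values under 8 limit what can be said of Il2ra, Il2rb, Il15ra and the dimmer Il4ra probe set.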

Other observations

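Among the pathway genes that were highest on array 1 in every group were Ccnd3, Stat5a, Stat3, Jak3, Cish, Socs1, Klf2 and Grb2. All were singled out after their values were seen, and values are given for Ccnd3 and Stat5a. Ccnd3, a D-type cyclin, was at 753, 499 and 865 on array 1 of HY_high, HY_low and OT1, and between 38 and 238 on the other 9 arrays. Stat5a was at 309, 233 and 143 on array 1 and between 32.5 and 120 on the others. Not every pathway gene shared this, since Socs2 had 10.9, 3.75 and 9.04 on array 1 and 6.28 to 26.2 on the others. On the same 3 arrays Il7r was at 22.8, 15.0 and 34.3, the lowest value of each group, and the brighter Il4ra probe set at 26.0, 30.4 and 46.4, the highest of each.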
